A study of Bos taurus with 17 samples.

Results

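Bovine mesenchymal stem cells grown for 21 days on a smart scaffold, a cellulose scaffold that carries the growth factors itself, were compared with the same cells grown for 21 days on a plain scaffold whose medium carried those factors (the media scaffold). The comparison holds 7 of the 17 libraries the labels describe, 3 from the smart scaffold and 4 from the media scaffold. Of the 12894 genes in the deposited table, 10635 had a mean of at least 5 normalized reads over these 7 libraries and were tested. The cells came from umbilical cord and were primary cultures, first expanded in serum-rich medium and then moved to a myogenic differentiation medium. For the media scaffold this medium was DMEM/F-12 with 2% fetal bovine serum, insulin-transferrin-selenium supplement, albumin, dexamethasone, ascorbic acid 2-phosphate, antibiotics and glutamine, together with vascular endothelial growth factor (VEGF) at 10 ng/mL, insulin-like growth factor (IGF) at 10 ng/mL and a fibroblast growth factor (FGF) whose dose the labels do not give. For the smart scaffold the scaffold itself carried the growth factors and the medium held none, and the amount attached is not stated. Cells on plastic in the factor-containing medium at day 21 (2 libraries) and day 3 (3 libraries), and cells on plastic at day 0 (3 libraries), are given beside the scaffold values as a frame of reference. The series' design text calls the libraries biological replicates, and which cultures or animals they came from is not given.

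FGFs signal through receptor tyrosine kinases that need heparan sulphate, and the ERK pathway they switch on induces its own inhibitors, among them the Sprouty and dual-specificity phosphatase genes. IGF acts through the IGF1 receptor and AKT, which keeps FOXO transcription factors out of the nucleus, and a family of IGF-binding proteins sets how much of it reaches the receptor. VEGF acts mainly on endothelial cells, while mesenchymal stem cells are stromal cells that make collagen-rich matrix, secrete chemokines and complement proteins, and can take on fat, bone, cartilage and smooth-muscle-like features.

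The recovered depth was 7397661 to 8975051 reads in the media libraries and 4315324 to 8258530 in the smart libraries, with smart replicate 1 the shallowest. Correlations of log2 values across tested genes were 0.9856 to 0.9903 between media libraries, 0.9814 to 0.9868 between smart libraries and 0.9768 to 0.9824 between the groups. The first principal component, with 33.7% of the variance, placed the media libraries at -19.2 to -11.4 and the smart libraries at 18.2 to 25, and the second, with 19.2%, set smart replicate 1 (27.1) apart from smart replicates 2 and 3 (-11.5 and -18.7). Media replicate 4 differed from the other media libraries in single genes, for instance 28766 normalized reads of GAPDH against 20457, 21262 and 20635. All values below are normalized reads, and in bulk RNA fewer cells of a type and less RNA per cell cannot be told apart.

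Cells on the smart scaffold had higher levels of 395 genes and lower levels of 534 genes at an adjusted p under 0.05, which is 8.74% of the genes tested, 3.71% in the higher and 5.02% in the lower direction. The falls were the larger changes: 123 genes (1.16%) fell at least 2-fold, against 14 genes (0.132%) that rose as much. The median log2 difference was 0.37 among the genes that rose, -0.57 among those that fell and -0.00 over all genes. No library of one group lay within the range of the other for 898 of the 929 called genes and for 20.7% of all genes tested. A lack of overlap given below for a called gene is therefore no separate support for its call. A fit of all 15 mapped libraries, which shares 1 estimate of the spread among 5 groups, called 74 genes higher and 176 lower, so that fit's counts are given beside those of the gene groups. Leaving out 1 library gave 225 to 466 higher and 332 to 588 lower calls. The fewest came without media replicate 1 (225 higher and 352 lower), media replicate 2 (231 and 332), media replicate 3 (229 and 337) or smart replicate 2 (229 and 410), and without smart replicate 3 there were 262 and 429. Where a gene group below is given no call in a direction, which happened in 27 cases, limma called none of its members at an adjusted p under 0.05 and 0 to 8 members had an unadjusted p under 0.05. In those cases edgeR called none either, and DESeq2 called 1 gene in each of 3 cases, a rise among skeletal muscle contractile genes, a fall among chondrocyte genes and a fall among glycolysis genes.

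**Figure D1:**
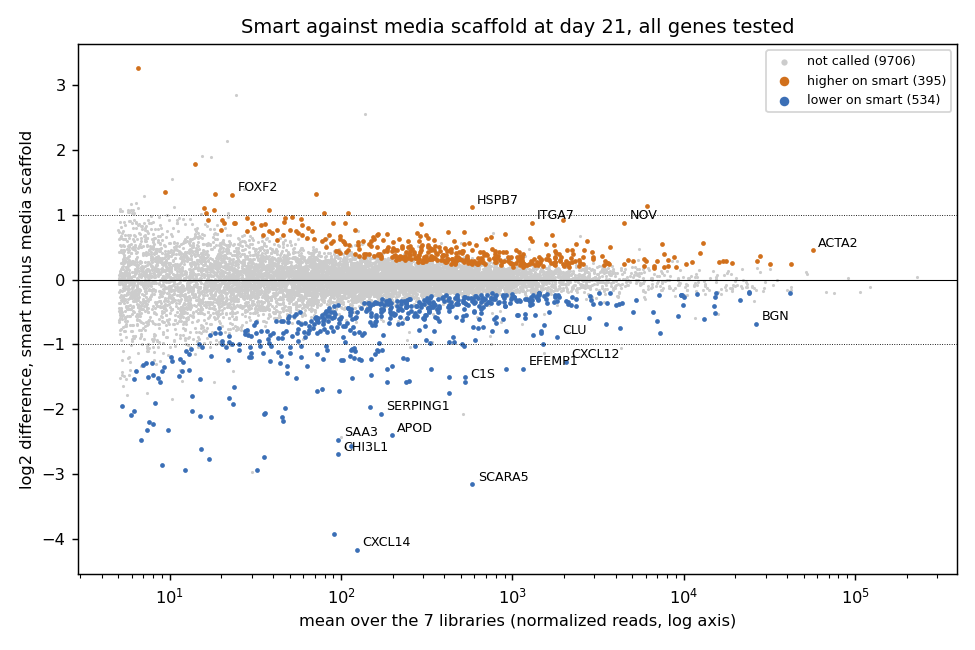
Each point is 1 of the genes tested, with its mean over the 7 libraries on the log horizontal axis and its log2 difference (smart minus media scaffold) on the vertical axis. Genes past an adjusted p of 0.05 are coloured, 395 higher and 534 lower on the smart scaffold, and dotted lines mark a 2-fold difference, which far more genes passed downward than upward.

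The deepest fall was that of CXCL14, a chemokine made by stromal and epithelial cells. It stood at 149, 207, 275 and 199 normalized reads in the 4 media libraries and at 8.25, 13.01 and 10.3 in the 3 smart libraries, a log2 difference of -4.16 ± 0.20 (SE; adjusted p = 1.64e-08), or 19.7 times less by the ratio of means. SCARA5, a scavenger receptor that takes up ferritin, was at 1006, 931, 1086 and 724 against 165, 72.9 and 90.8, a log2 difference of -3.16 ± 0.31 (adjusted p = 0.00331). In both genes every smart library lay far under the lowest media library. CHI3L1, a secreted chitinase-like glycoprotein, fell from 151 ± 32.7 (SD, n = 4) to 22.1 ± 1.90 (n = 3), and ESM1, a secreted proteoglycan known from VEGF-treated endothelium, from 176 ± 17.9 to 29.5 ± 6.88. The lipocalin APOD fell from 301 ± 13.9 to 57.6 ± 14.5, and the coagulation factor XIII subunit F13A1 from 69.3 ± 1.88 to 14.6 ± 0.589. AOX1, an aldehyde oxidase, fell from 218 ± 26.2 to 54.9 ± 6.80, and ANGPT4, an angiopoietin, from 69.3 ± 17.8 to 16.6 ± 2.95. The groups did not overlap for any of these 8 genes, which the rule that chose them required. Another of the largest falls, COX4I2, a lung-type subunit of cytochrome c oxidase, rested on an uneven media group: 26.3, 33.8, 40.5 and, in replicate 4, 128, against 8.25, 6.07 and 4.60 (log2 difference -2.73 ± 0.49, adjusted p = 0.00945). Its call was lost without smart replicate 2 (adjusted p = 0.0564) or smart replicate 3 (0.0757), and by edgeR (0.138).

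Among the genes named here, rises were smaller. A gene not named here had a log2 difference of 3.26. Genes named by size needed a call, a symbol, a mean of at least 20 and groups that do not overlap. HSPB7, a small heat shock protein of cardiac and vascular muscle, stood at 364, 346, 358 and 477 in the media libraries and at 801, 919 and 776 in the smart libraries, a log2 difference of 1.11 ± 0.11 (adjusted p = 2.13e-05). All 3 smart libraries lay above all 4 media libraries, including replicate 4, the highest of the media group. The rule that chose the rises by size required such separation. FOXF2, a transcription factor of gut and lung mesenchyme, rose from 13.9 ± 3.16 to 35.4 ± 6.49, and NECTIN1, a cell adhesion receptor, from 54.5 ± 8.82 to 111 ± 3.75. The cation channel gene TRPC4 rose from 25.6 ± 6.34 to 54.2 ± 8.20, and CSRP2, a LIM-domain protein of smooth muscle, from 1437 ± 201 to 2712 ± 197. Further rises chosen by size were TGFBI, LSMEM1, GPR65, CELA3B, ANXA8L1 and KCNK5, with log2 differences of 0.92 to 1.02. KCNK5 kept its call without only 1 of the 7 libraries (adjusted p of 0.0558 to 0.123 without each of the other 6), and ANXA8L1 lost its call without smart replicate 2 (0.0548). The call of KCNK5 was also lost by edgeR (0.0515) and DESeq2 (0.133). In the 15-library fit the calls of FOXF2, GPR65, ANXA8L1 and KCNK5 were lost.

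**Figure D2:**
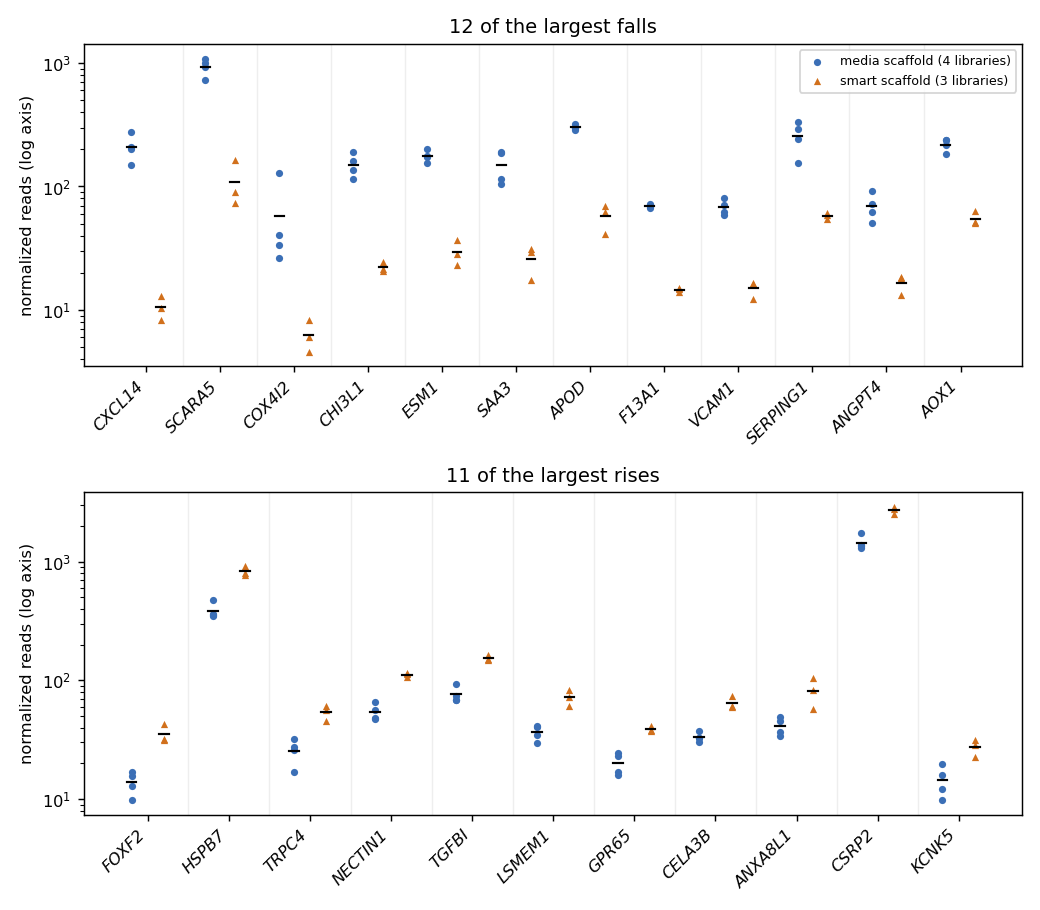
Normalized reads (log axis) of the 12 largest falls (upper panel) and 11 of the largest rises (lower panel) in each media library (circles) and smart library (triangles), with a bar at each group mean. Only genes whose groups do not overlap could be chosen for this figure. The falls span a wider range of fold than the rises.

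**Figure D3:**
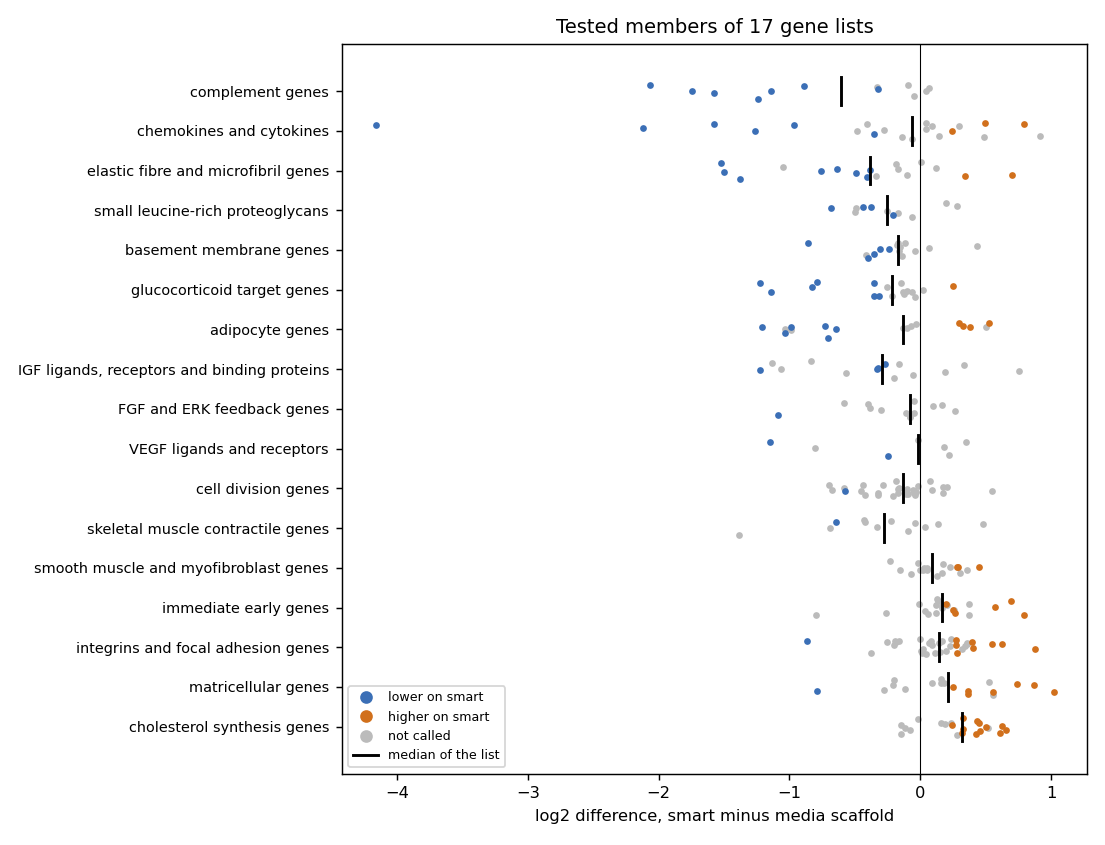
Log2 difference (smart minus media scaffold) of each tested member of 17 gene lists, 1 point per gene, with a black bar at the list's median. Complement genes have the lowest median (-0.61) and cholesterol synthesis genes the highest (0.32). The medians of the FGF feedback, VEGF and cell division lists are -0.08, -0.02 and -0.14. Differences are negative in 10 of 13 FGF feedback, 4 of 7 VEGF and 24 of 30 cell division genes.

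The growth factors were what differed between the groups by design, so the genes around their pathways were examined first. Of 13 tested FGF and ERK feedback genes, 1 fell, none rose and the median log2 difference was -0.08, and the 15-library fit also called 1 lower. The gene that fell was SPRY1, a Sprouty inhibitor of receptor tyrosine kinase signalling: 149, 137, 159.6 and 146 in the media libraries against 77.6, 65.1 and 65.5 in the smart libraries, with no overlap (log2 difference -1.09 ± 0.12, adjusted p = 2.13e-05). DUSP6, the ERK phosphatase most often used as an FGF read-out, was at 80.3 ± 16.7 and 60.5 ± 5.89 (adjusted p = 0.176). SPRY2 was at 82.8 ± 15.1 and 64.3 ± 22.03 (adjusted p = 0.297), and passed the test without smart replicate 1 (0.0498). Both genes overlapped between the groups, and both stood higher on plastic at day 21, DUSP6 at 1309.7 and 1718 and SPRY2 at 352 and 219.9. Among 13 FGF ligands, receptors and cofactors, none rose and 1 fell, the heparan sulphate proteoglycan SDC4 (123 ± 15.4 to 90.5 ± 8.65, adjusted p = 0.0423), whose call was lost without any 1 of 5 libraries (adjusted p up to 0.14) and in the 15-library fit. FGFR1 ranged from 51.3 to 109 in the media and from 54.7 to 117 in the smart libraries, so its level did not separate them. The cells' own FGF2 transcript was at 236 ± 18.1 and 254 ± 20.3, and FGF7 at 18.3 ± 4.97 and 21.6 ± 0.939, with overlapping libraries.

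Several IGF-binding proteins were lower on the smart scaffold. Of 14 tested genes of the IGF system, 4 fell and none rose, with a median log2 difference of -0.29, and the 15-library fit also called 4 lower. IGFBP5 fell from 305, 305, 339 and 329.7 to 199.7, 97.2 and 129.9 (log2 difference -1.22 ± 0.21, adjusted p = 0.00932), a call lost without smart replicate 3 (0.0628). The smaller falls were those of IGFBP7 (23176 ± 1011 to 18568 ± 1037), of IGFBP2 (16494 ± 644 to 13699 ± 947) and of IGF2R, the receptor that clears IGF2 (1987 ± 164 to 1578 ± 78.0). The calls of IGFBP2 and IGF2R were lost in the 15-library fit, and that of IGFBP2 also without smart replicate 2 (0.0674). Another pair of binding proteins had log2 differences near that of IGFBP5, -1.06 for IGFBP3 and -1.13 for IGFBP6, but did not pass the test. IGFBP3, the main IGF carrier in serum, was at 5950.2, 4690.3, 6743 and 4583 against 3371, 1909.6 and 2719.6, without overlap (log2 difference -1.06 ± 0.24, adjusted p = 0.0605). It was called in the 15-library fit (adjusted p = 0.00143), by DESeq2 (0.00114) and without smart replicate 1 (0.0383). IGFBP6 was at 1984 ± 221 and 941 ± 312 (adjusted p = 0.0676), and was called in the 15-library fit (0.0477), by DESeq2 (0.00171) and without smart replicate 3 (6.54e-05). On plastic at day 21, IGFBP3 reached 60321 and 64533. The receptor IGF1R was at 53.8 ± 7.45 and 67.7 ± 5.45 (adjusted p = 0.209), and the ligand IGF1 at 50.9 ± 11.6 and 34.8 ± 11.6 (adjusted p = 0.168). IGF2 was at 98.1 ± 40.1 and 160.4 ± 41.5 (adjusted p = 0.232) and was called without media replicate 4, which held the highest media value at 155 (0.00907).

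FOXO target genes, which rise when AKT activity is low, did not rise as a group: 4 of 14 tested members fell, 1 rose, and the median log2 difference was -0.30. The 15-library fit called 2 lower and 1 higher. PIK3IP1, an inhibitor of PI3 kinase, fell from 144, 201, 194 and 134 to 92.4, 89.4 and 97.7 (log2 difference -0.83 ± 0.14, adjusted p = 0.00148). PDK4, which restrains pyruvate oxidation, fell from 206 ± 45.9 to 94.0 ± 30.0 (adjusted p = 0.021, and 0.0595 to 0.103 without any 1 of 3 libraries). The gene that rose was GADD45A, a growth arrest and stress gene, from 1582 ± 95.4 to 2103 ± 69.0 (log2 difference 0.41 ± 0.06, adjusted p = 0.00054). SESN1, a stress gene of the sestrin family, fell from 142 ± 28.2 to 91.9 ± 4.98 (adjusted p = 0.0178), a call lost without any 1 of 5 libraries (up to 0.0755) and in the 15-library fit. In these 4 genes the groups did not overlap, as in 898 of the 929 called genes.

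Of 7 tested VEGF ligands and receptors, 2 fell and none rose, and the 15-library fit called 1 lower. PGF, placental growth factor, a ligand of VEGF receptor 1, fell from 91.1, 109, 97.2 and 80.0 to 49.5, 29.5 and 49.4 (log2 difference -1.15 ± 0.18, adjusted p = 0.00087). NRP1, a VEGF co-receptor, fell from 943 ± 56.9 to 796 ± 73.7 (adjusted p = 0.0481), and its call was lost without any 1 of 5 libraries (adjusted p up to 0.176), by DESeq2 and in the 15-library fit. VEGFA was at 47.8 ± 11.9 and 60.7 ± 11.04 (adjusted p = 0.308) and VEGFC at 268 ± 43.3 and 309 ± 5.06 (adjusted p = 0.249), and both overlapped. The receptors KDR and FLT1 were not among the genes tested.

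Complement genes were the list with the lowest median: 7 of 12 tested members fell, none rose, and the median log2 difference was -0.61. The 15-library fit called 3 of them lower. C1R and C1S, the proteases of the first complement component, fell together with their inhibitor SERPING1. C1S was at 877, 701, 822 and 544 on the media scaffold and at 261, 197 and 276 on the smart scaffold (log2 difference -1.58 ± 0.19, adjusted p = 0.00229). C1R was at 590.1, 689.5, 688 and 472 against 216, 128 and 208 (-1.75 ± 0.22, adjusted p = 0.00425), and SERPING1 at 242, 332, 292 and 156 against 61.1, 59.0 and 54.0 (-2.07 ± 0.23, adjusted p = 0.000675). In all 3 genes media replicate 4 was the lowest media library and still stood above each smart library. CFB and C2, which supply the proteases of the alternative and classical convertases, fell from 29.2 ± 7.07 to 11.8 ± 2.86 and from 45.9 ± 10.5 to 20.001 ± 2.91. CLU, a secreted chaperone that also restrains the terminal complex, fell from 2262 ± 234 to 1219 ± 74.3 (log2 difference -0.89 ± 0.08, adjusted p = 4.32e-06). C3, the central component, was at 335 ± 17.6 and 316 ± 55.7, with overlapping libraries. The calls of C1R, CFB and C2 were lost in the 15-library fit. These transcripts were scarce early in culture: on plastic C1S was at 2.60 ± 1.42 at day 0 and 11.1 ± 2.05 at day 3 (n = 3 each), and at 1900.4 and 1234 in the 2 libraries of day 21. SERPING1 was likewise at 1.01 ± 0.988, at 5.34 ± 1.94, and at 1027 and 632.

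Of 21 tested chemokine and cytokine genes, 6 fell and 3 rose, with a median log2 difference of -0.06. Differences were positive in 10 members, up to 0.91, and negative in 11. The genes described below are mostly falls and do not stand for the list. The 15-library fit called 5 lower and none higher. CXCL12, the ligand of CXCR4, fell from 2776, 2995, 2827 and 2389.8 to 1164, 1039 and 1221 (log2 difference -1.26 ± 0.08, adjusted p = 8.95e-08). CXCL5, a neutrophil attractant, fell from 305, 357, 352 and 319 to 129, 100.6 and 106 (-1.57 ± 0.10, adjusted p = 1.22e-07). The spread within each group was small beside these differences. CCL2, a monocyte attractant, fell from 133 ± 20.7 to 67.4 ± 5.11 (adjusted p = 0.00032), and VCAM1, a leukocyte adhesion receptor of activated endothelium and stroma, from 68.1 ± 10.0 to 14.9 ± 2.41 (adjusted p = 3.74e-06). CX3CL1, a membrane-bound chemokine outside the list, fell from 348 ± 75.5 to 119 ± 36.1 (adjusted p = 0.00865, and 0.0561 without smart replicate 3). The acute phase gene SAA3 fell from 105, 191, 185 and 115 to 29.7, 17.4 and 31.0 (log2 difference -2.47 ± 0.27, adjusted p = 0.000349). PTX3, a secreted pentraxin, went the other way, from 3161 ± 105 to 4463 ± 383 (log2 difference 0.49 ± 0.07, adjusted p = 0.000159), a call the 15-library fit lost. On plastic at day 21, PTX3 was at 78.7 and 13.7 and CXCL12 at 14477 and 11336. CXCL14 was near 0 at day 0 (0.309 ± 0.277), listed at 0 at day 3, and at 8.28 and 3.44 on plastic at day 21, so of the 5 groups it was the media scaffold that stood apart.

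**Figure D4:**
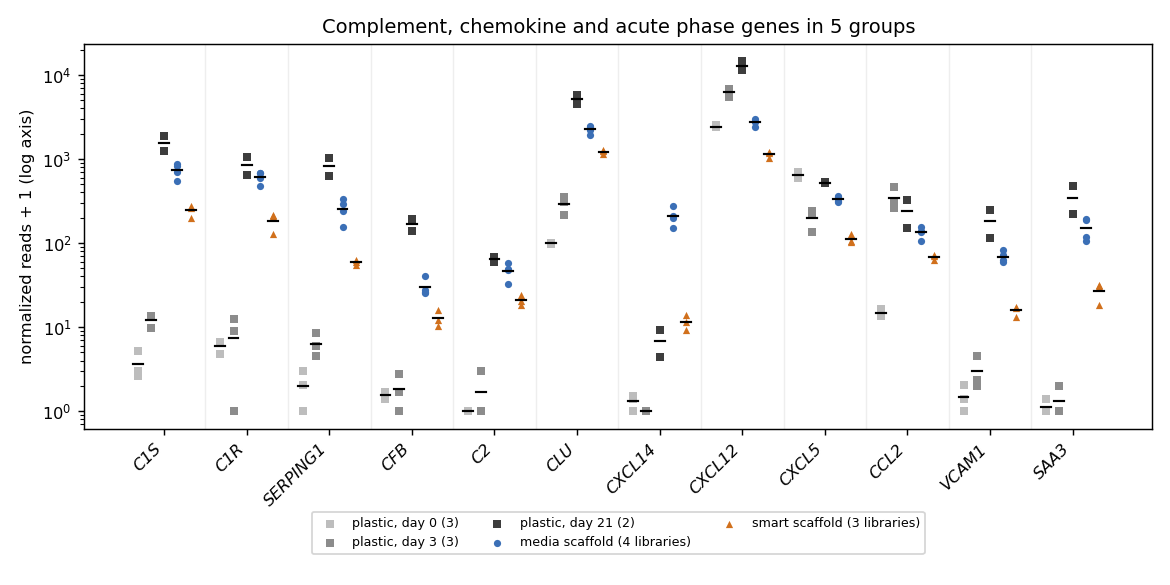
Normalized reads plus 1 (log axis) of 12 complement, chemokine and acute phase genes in every library of plastic at days 0, 3 and 21 (squares), media scaffold (circles) and smart scaffold (triangles), with a bar at each group mean. All 12 were chosen from genes that fell, and C3 and PTX3 are not shown. In each gene the smart libraries lie below all 4 media libraries, which this choice favoured.

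Of 23 tested interferon response genes, 1 passed the test in each direction, and the median log2 difference was -0.03. That is 4.35% in each direction, near the 3.71% higher and 5.02% lower over all genes tested. The fall was that of IFIT3, from 41.9 ± 4.67 to 21.5 ± 4.98 (adjusted p = 0.00758). Both calls were lost in the 15-library fit.

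Fibres of elastin are laid down on a scaffold of microfibrils with the help of fibulins and latent TGF-beta binding proteins. Of 17 tested elastic fibre and microfibril genes, 8 fell, 2 rose and the median log2 difference was -0.38. The 15-library fit called 4 lower and 1 higher, and 5 fell without smart replicate 3. MFAP5, a microfibril glycoprotein, fell from 689, 635, 743 and 867 to 225, 293 and 259 (log2 difference -1.50 ± 0.11, adjusted p = 2.5e-06). FBLN1, fibulin 1, fell from 158, 190.0, 177 and 120.4 to 54.5, 55.5 and 54.0 (-1.52 ± 0.14, adjusted p = 6.46e-06). Neither gene overlapped between the groups. EFEMP1, fibulin 3, fell from 1560.4 ± 264 to 606 ± 153 (adjusted p = 0.0139), a call lost without smart replicate 3 (0.0671), and LTBP4 fell from 68.3 ± 4.04 to 40.3 ± 5.98, a call lost in the 15-library fit. LTBP1, which stores latent TGF-beta in the matrix, rose from 655, 716, 683 and 804 to 1167, 1197 and 1112 (0.70 ± 0.07, adjusted p = 1.65e-05), and FBLN2, fibulin 2, rose from 2646 ± 80.3 to 3367 ± 244. Elastin itself was measured at 28807, 28118, 29077 and 21545 in the media libraries and at 30327, 30739.7 and 26273 in the smart libraries (ELN, log2 difference 0.12 ± 0.11, adjusted p = 0.552), so the groups overlapped. At day 0 ELN was at 19.0 ± 2.50, and at day 21 on plastic at 6635 and 5048.

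The abundant fibrillar collagen genes COL1A1 and COL3A1 did not pass the test. COL1A1 was at 228123, 222246, 222330.0 and 240215 on the media scaffold and at 235560.0, 210886 and 260015 on the smart scaffold (log2 difference 0.04 ± 0.07, adjusted p = 0.777). COL3A1 was at 79574 ± 3249.7 and 69130.5 ± 7266 (adjusted p = 0.0696), and passed the test without media replicate 4 (0.0471) or smart replicate 3 (0.00784). Of 21 tested collagen chains, 5 fell and none rose, with a median of -0.01, and 1 was called lower in the 15-library fit. The chain genes that fell included COL18A1, a basement membrane collagen (1627, 1742, 1718 and 1403 against 1068, 839 and 789, adjusted p = 0.000569), and COL5A3 (148 ± 19.1 to 66.2 ± 17.4, adjusted p = 0.000308). COL8A2 fell from 323 ± 7.64 to 233 ± 44.7 and COL16A1 from 1397 ± 53.8 to 1105 ± 66.5. COL18A1 also belongs to the 15 tested basement membrane genes, of which 5 fell and none rose (median -0.17, 1 lower in the 15-library fit). Among these the laminin chain LAMB1 fell from 2459 ± 160.1 to 1864 ± 84.7, and the nidogens, which link laminin to collagen IV, from 2335 ± 77.1 to 1831 ± 86.0 for NID2 and from 2557 ± 173 to 2067 ± 77.6 for NID1. The 15-library fit lost the calls of COL5A3, COL8A2, COL16A1, LAMB1, NID1 and NID2.

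Among 11 small leucine-rich proteoglycans, which bind collagen fibrils, 4 fell and none rose (median -0.25, 1 lower in the 15-library fit). BGN, biglycan, fell from 32758, 32158, 31868 and 29392 to 20159.6, 21187 and 17858 (log2 difference -0.68 ± 0.07, adjusted p = 7.73e-06), with a wide gap between the groups. PRELP fell from 4618 ± 323 to 3556 ± 314, PODNL1 from 147 ± 14.3 to 108 ± 5.03 and FMOD, fibromodulin, from 16418 ± 946 to 14192 ± 251. The 15-library fit lost all 3 calls, and leaving out 1 library ended that of PODNL1 for 4 libraries (up to 0.0849) and that of FMOD for 6 (up to 0.131). DCN, decorin, was at 9576 ± 539 and 9295 ± 1873 (adjusted p = 0.813). LUM, lumican, was at 4876 ± 109.7 and 5657 ± 1033 (adjusted p = 0.251, and 0.0221 without smart replicate 1). Of 23 collagen processing genes, 5 fell and 3 rose (median -0.02, 1 lower in the 15-library fit). Of the cross-linking oxidases, LOXL1, which acts on elastin, fell from 1805 ± 291 to 1019.6 ± 147 (adjusted p = 0.0178), and LOXL4 rose from 78.3 ± 14.3 to 124 ± 4.10 (adjusted p = 0.00743). LOXL1 lost its call without smart replicate 2 (0.063) or smart replicate 3 (0.0501), and LOXL4 lost it in the 15-library fit. PCOLCE, an enhancer of procollagen cleavage, fell from 7579 ± 327 to 5389.8 ± 833, and PLOD2, a collagen lysyl hydroxylase, rose from 978 ± 55.6 to 1264 ± 95.6, both calls lost in the 15-library fit.

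Matricellular proteins, which sit in the matrix and signal to cells rather than bear load, went up more often than down. Of 18 tested, 7 rose and 1 fell, with a median log2 difference of 0.22, and the 15-library fit called 2 higher and 1 lower. Within the CCN family the members moved apart. NOV (CCN3) rose from 2862, 3122, 3306 and 4023 to 5902, 5541 and 6743 (0.87 ± 0.11, adjusted p = 0.00094). CTGF (CCN2) rose from 10999, 10104, 9877 and 12252 to 15556, 16092 and 15995 (0.56 ± 0.07, adjusted p = 9.31e-05), a call the 15-library fit lost. WISP2 (CCN5), which lacks the C-terminal domain of the others, fell from 889, 977, 890.1 and 956 to 586, 473 and 554 (-0.79 ± 0.08, adjusted p = 7.73e-06). In none of the 3 did the groups overlap. TGFBI, a collagen-binding protein induced by TGF-beta, rose from 76.0 ± 11.7 to 154 ± 6.98 (adjusted p = 0.000105). SMOC2, a calcium-binding matrix protein, rose from 42.2 ± 8.89 to 70.7 ± 12.7 (adjusted p = 0.0222), a call lost without any 1 of 3 libraries (up to 0.0965). THBS1 rose from 24950.2 ± 2166 to 32043 ± 1152 and TNC, tenascin C, from 17671 ± 775 to 21033 ± 532. The calls of SMOC2, THBS1 and TNC were lost in the 15-library fit. Fibronectin (FN1) was at 51275 ± 2604 and 54486 ± 2562 (adjusted p = 0.41). Of 19 matrix proteases and inhibitors, 2 rose and 4 fell (median -0.15, 1 in each direction in the 15-library fit). The protease inhibitor SERPINE2 fell from 4233, 4138, 4165 and 4142 to 2727, 2477 and 2569 (-0.69 ± 0.06, adjusted p = 1.75e-06). TIMP3 rose from 569.6 ± 82.4 to 875 ± 125, and TIMP4 fell from 67.9 ± 11.7 to 38.5 ± 10.1. The 15-library fit lost both calls, and leaving out 1 library lost that of TIMP3 once (0.0502 without media replicate 4) and that of TIMP4 for 3 libraries (0.0556 to 0.0586).

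TGFBI and CTGF are also known TGF-beta targets, so the lists overlap. Of 24 tested TGF-beta and BMP response genes, 6 rose and 2 fell (median 0.14, 2 higher and 1 lower in the 15-library fit). Further rises were those of the activin subunit INHBA (1546 ± 173 to 2093 ± 204, adjusted p = 0.0059), of BMP4 (344 ± 57.2 to 478 ± 39.8, adjusted p = 0.0176) and of the inhibitory SMAD7 (139 ± 13.1 to 179 ± 17.2, adjusted p = 0.0489). All 3 calls were lost in the 15-library fit, that of BMP4 also without any 1 of 3 libraries (up to 0.0791) and that of SMAD7 without any 1 of 5 (up to 0.158). CHRDL1, a secreted BMP antagonist, fell from 1015, 1126, 1182 and 1155 to 617, 593 and 723 (-0.80 ± 0.08, adjusted p = 7.73e-06), without overlap. Of 20 targets of YAP and TAZ, the transcriptional partners that respond to cell spreading, 5 rose and 1 fell (median 0.18, 1 higher in the 15-library fit). GADD45B rose from 338, 324, 339 and 299 to 561, 511 and 556 (0.74 ± 0.08, adjusted p = 1.65e-05), CRIM1 rose from 654 ± 57.5 to 901 ± 49.7, and F3, tissue factor, fell from 183 ± 33.4 to 111 ± 7.49. The calls of CRIM1 and F3 were lost in the 15-library fit.

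Of 34 integrin and focal adhesion genes, 8 rose and 1 fell, with a median log2 difference of 0.15, and the 15-library fit called 2 higher. ITGA7, the laminin-binding integrin of muscle, rose from 866, 977, 923 and 1053 to 1588, 1856 and 1807 (0.87 ± 0.08, adjusted p = 2.54e-06). ITGA5, a subunit of the fibronectin receptor, rose from 1363, 1132, 1279 and 1498 to 1882, 1920.0 and 1943 (0.55 ± 0.08, adjusted p = 0.000423). Both were separate between the groups. On plastic at day 21 ITGA7 was at 109 and 155, lower than on either scaffold, and ITGA5 at 1924 and 1670.0. ITGA3 rose from 126 ± 14.97 to 194 ± 9.34. ITGB1, the shared beta chain of these receptors, rose from 10852 ± 1297 to 14352 ± 1668 (adjusted p = 0.0296), with 1 smart library (12497) under the highest media library (12499.7), and its call was lost without any 1 of 5 libraries (up to 0.0999). ITGA9 fell from 37.5 ± 6.48 to 19.9 ± 0.803 (adjusted p = 0.0123, and 0.0537 without media replicate 2). The calls of ITGA3, ITGA9 and ITGB1 were lost in the 15-library fit.

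Of 18 tested smooth muscle and myofibroblast genes, 3 rose and none fell, with a median of 0.09, and the 15-library fit called 1 higher. ACTA2, smooth muscle actin, was at 47158, 46340.0, 45332 and 56853 on the media scaffold and at 60997, 65600.5 and 73262 on the smart scaffold (0.45 ± 0.08, adjusted p = 0.00417), with no overlap. MYLK, myosin light chain kinase, rose from 15615 ± 1022 to 18959 ± 744, and TPM1, tropomyosin 1, from 16058 ± 1003 to 19646 ± 1619, calls the 15-library fit lost. TPM1 also lost its call without media replicate 2 (0.0574) or smart replicate 2 (0.0837). CNN1, calponin, was at 4935 ± 632 and 6079 ± 579 (adjusted p = 0.0671), and was called without media replicate 4 (0.00176) or smart replicate 1 (0.0437), by DESeq2 (0.0242) and after rescaling to the same total (0.0348). TAGLN was at 265 ± 26.3 and 313 ± 49.2 (adjusted p = 0.247, and 0.0426 without smart replicate 1), and MYL9 at 8166 ± 439 and 8477 ± 787 (adjusted p = 0.717).

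Skeletal muscle genes were the aim of the differentiation medium. Of the contractile genes tested, 8.33% were called lower, against 5.02% of all genes tested, and 0% higher, against 3.71%. Of 48 listed contractile genes, 21 were in the table and 12 reached a mean of 5. Among these 12 none rose and 1 fell, TMOD1, a cap of actin filament ends found in several tissues (92.5 ± 5.48 to 58.9 ± 5.30, adjusted p = 0.00491), a call the 15-library fit lost. The median log2 difference was -0.28. DES, the muscle intermediate filament desmin, was at 10857, 11972, 11895 and 12148 on the media scaffold and at 10946, 11309 and 10679.5 on the smart scaffold (-0.09 ± 0.06, adjusted p = 0.376). It had been at 993 ± 48.6 at day 0 and was at 11838 and 14302 on plastic at day 21. Of 18 tested myogenic regulators, 2 rose and none fell: MEF2A (179 ± 21.3 to 245 ± 32.7, adjusted p = 0.0221) and MEF2D (209.8 ± 14.1 to 270.4 ± 11.7, adjusted p = 0.0166), transcription factors used in many tissues beside muscle. Both calls were lost in the 15-library fit, MEF2A's also without any 1 of 3 libraries (up to 0.1) and MEF2D's without media replicate 1 (0.0658) or smart replicate 1 (0.0573).

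Of 21 heat shock genes, small and large, 6 rose and 1 fell (median 0.14, 3 higher in the 15-library fit). CRYAB, alpha-B crystallin, a chaperone of the desmin cytoskeleton, rose from 6201, 5913, 6200.0 and 6591 to 9829, 8665 and 8943 (0.55 ± 0.06, adjusted p = 2.9e-05), and HSPB8 from 875 ± 53.8 to 1112 ± 25.4 (adjusted p = 0.00294). HSPA2 fell from 437 ± 43.8 to 346 ± 27.7, a call lost without any 1 of 4 libraries (up to 0.0984) and in the 15-library fit. On plastic at day 21 HSPB7 was at 6.90 and 10.3 and CRYAB at 551 and 539, so both scaffolds stood well above plastic of that day.

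**Figure D5:**
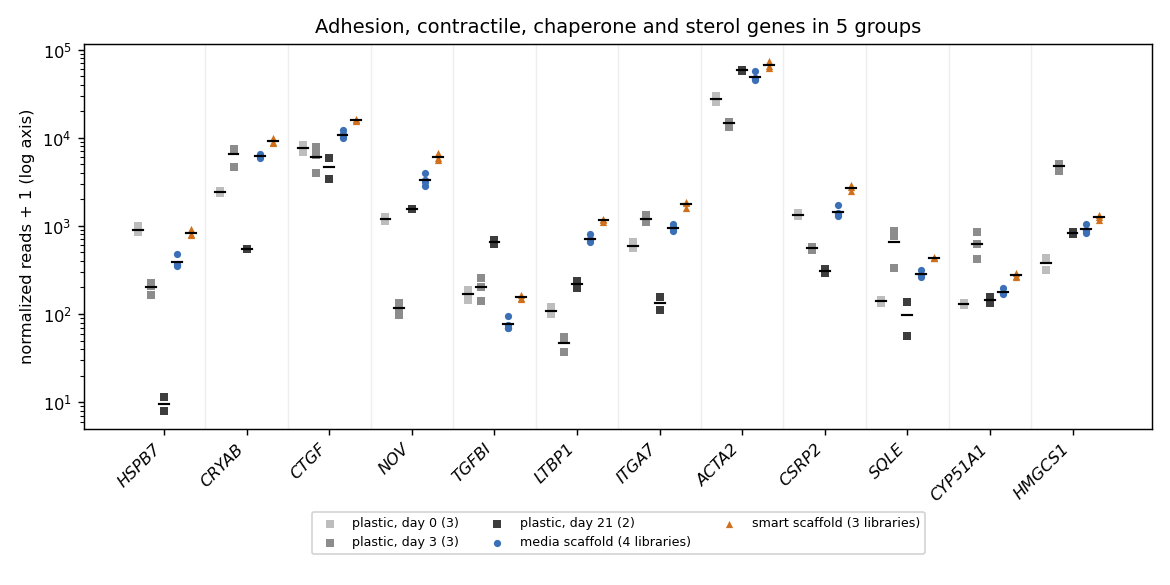
Normalized reads plus 1 (log axis) of 12 genes that rose, in every library of plastic at days 0, 3 and 21 (squares), media scaffold (circles) and smart scaffold (triangles), with a bar at each group mean. In each gene the smart libraries lie above all 4 media libraries, which the choice of genes that rose favoured. The place of plastic differs from gene to gene.

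Cholesterol synthesis genes had the highest share of rises. Of 22 tested, 12 rose, none fell, and the median log2 difference was 0.32, and the 15-library fit called 4 higher. SQLE, squalene epoxidase, rose from 278, 279, 262 and 318 to 426, 439 and 432 (0.61 ± 0.08, adjusted p = 0.000214), and CYP51A1, lanosterol demethylase, from 177 ± 13.7 to 273 ± 17.03. The 15-library fit lost the calls of SQLE and CYP51A1. HMGCS1, which makes a precursor early in the pathway, rose from 909.5 ± 93.6 to 1247 ± 82.8, and IDI1 from 398 ± 15.7 to 563 ± 19.0. Libraries of the groups overlapped in none of these 4 genes, as was so for 898 of the 929 called genes and 20.7% of all genes tested. The rises stayed under 2-fold, and HMGCS1 stood under its level on plastic at day 3, which was 4753 ± 478. VLDLR, a lipoprotein receptor, rose from 512 ± 56.8 to 739 ± 56.1. Fatty acid synthesis genes moved less: 2 of 14 rose and none fell, namely SREBF1 (969.8 ± 63.0 to 1161 ± 17.4, adjusted p = 0.0187, and 0.0577 without smart replicate 2) and ACSL3 (487 ± 28.7 to 613 ± 84.0, adjusted p = 0.034, lost without any 1 of 5 libraries, up to 0.165). Their median was 0.10, and neither call held in the 15-library fit.

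Adipocyte genes split. Of 17 tested, 6 fell and 4 rose, with a median of -0.13, and the 15-library fit called 3 lower and none higher. Without media replicate 1, media replicate 3 or smart replicate 3, 3 fell. PPARG, the master regulator of fat cell formation, fell from 708, 780.1, 735 and 595 to 398, 412 and 464 (-0.73 ± 0.09, adjusted p = 9.31e-05). LPL, which releases fatty acids from lipoproteins, fell from 318, 313, 339 and 253 to 121, 136 and 137 (-1.21 ± 0.11, adjusted p = 3.39e-06). The groups were apart in both. CIDEC, a lipid droplet protein, fell from 642 ± 127 to 325 ± 74.8 (adjusted p = 0.0236), and the fatty acid transporter CD36 from 65.2 ± 20.03 to 30.8 ± 7.97 (adjusted p = 0.0285). CIDEC lost its call without any 1 of 3 libraries and CD36 without any 1 of 5 (up to 0.103 in each). FABP5, a fatty acid binding protein, rose from 1983 ± 53.03 to 2495 ± 172. The calls of LPL, CIDEC, CD36 and FABP5 were lost in the 15-library fit. CIDEC was at 19.3 and 13.7 and LPL at 24.8 and 13.7 on plastic at day 21, below both scaffolds.

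Of 9 tested osteogenic genes, BMP4 rose and the homeobox gene MSX1 fell (93.0 ± 3.95 to 61.2 ± 8.88, adjusted p = 0.00973), and the 15-library fit called 1 lower and none higher. Of 10 chondrocyte genes 1 rose, COMP, a cartilage and tendon matrix protein (67.4 ± 10.1 to 109 ± 18.6, adjusted p = 0.00945), and its call was lost without smart replicate 2 (0.0668) and in the 15-library fit. Of 21 WNT pathway genes, 2 rose and 3 fell (median 0.01, 1 lower in the 15-library fit). SFRP1, a secreted WNT inhibitor, fell from 565, 503, 564 and 693 to 135, 219.5 and 286 (-1.49 ± 0.26, adjusted p = 0.0218), with the groups apart, although the call was lost without any 1 of 4 libraries (0.0504 to 0.0699). RSPO2, a secreted enhancer of WNT signalling, rose from 10.8 ± 3.31 to 28.3 ± 8.55 (adjusted p = 0.00945, and 0.0522 without smart replicate 1), and the WNT-responsive factor TCF7 from 17.4 ± 4.09 to 32.3 ± 5.27 (adjusted p = 0.0296, lost without any 1 of 5 libraries, up to 0.106). WNT11 fell from 47.9 ± 9.33 to 25.9 ± 4.72, a call lost without media replicate 1 (0.059) or smart replicate 2 (0.0561). The calls of RSPO2, TCF7 and WNT11 were lost in the 15-library fit.

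Dexamethasone, a glucocorticoid, was in the differentiation medium by the labels, and its known target genes leaned lower on the smart scaffold: 7 of 17 fell, 1 rose, and the median log2 difference was -0.22. The 15-library fit called 2 lower. Genes of this list can also answer to other signals, and the cause of these falls was not tested. MT2A, a metal-binding metallothionein, fell from 92.7, 119, 96.4 and 107 to 46.2, 42.5 and 42.5 (-1.22 ± 0.14, adjusted p = 2.9e-05). It and MT1E, which fell from 29.4 ± 5.29 to 14.9 ± 6.19, have near-identical copies whose reads could be split in counting, so both values are uncertain. MT1E lost its call without any 1 of 5 libraries (up to 0.107) and by DESeq2 (0.104). HIF3A fell from 146 ± 15.9 to 83.0 ± 22.6 and ANGPTL4 from 91.6 ± 13.97 to 52.9 ± 11.5, and DDIT4, an inhibitor of the TOR pathway, from 3559.9 ± 89.4 to 2785 ± 142. All 3 calls were lost in the 15-library fit. Retinoid genes were lower in 4 of 13 cases and higher in 1 (median -0.17, 4 lower in the 15-library fit). ALDH1A1, which makes retinoic acid, fell from 281, 248, 277 and 202 to 94.1, 77.2 and 119.5 (-1.38 ± 0.15, adjusted p = 6.37e-05). RARRES2, the adipokine chemerin, fell from 132 ± 20.3 to 56.0 ± 13.7, and RXRA, a nuclear receptor partner, from 1243 ± 60.3 to 856 ± 70.1. CYP26B1, which degrades retinoic acid, rose from 144 ± 5.70 to 189 ± 27.4 (adjusted p = 0.0412), a call lost without any 1 of 5 libraries (up to 0.164) and in the 15-library fit.

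Of 21 immediate early genes, which answer within minutes to growth factors and stress, 6 rose and none fell (median 0.17, 2 higher in the 15-library fit). Only 2 rose without media replicate 1 or media replicate 3, and 3 without media replicate 2, smart replicate 2 or smart replicate 3. ATF3 rose from 127 ± 9.79 to 206 ± 5.73 (0.69 ± 0.10, adjusted p = 0.000349), without overlap, and NR4A1 from 163 ± 6.52 to 248 ± 59.7 (adjusted p = 0.0102). FOS rose from 23.3 ± 3.57 to 41.5 ± 8.80 (adjusted p = 0.0262) and JUNB from 588 ± 39.0 to 709 ± 67.2 (adjusted p = 0.0462). Both lost their calls in the 15-library fit and when single libraries were left out, FOS for 4 (up to 0.121) and JUNB for 5 (up to 0.17). ATF3 belongs also to the stress response that amino acid shortage and endoplasmic reticulum (ER) stress share. Of 24 amino acid response genes, 6 rose and 1 fell (median 0.14, 2 higher in the 15-library fit), among them DDIT3, the transcription factor CHOP (800.1 ± 31.4 to 1071 ± 17.8, adjusted p = 0.000363), and TRIB3 (110.2 ± 6.45 to 167 ± 22.8, adjusted p = 0.00409, a call lost in the 15-library fit). Of 26 ER stress genes, 6 rose and none fell (median 0.11, 1 higher in the 15-library fit). DNAJC3 rose from 619 ± 30.9 to 812 ± 66.7, MANF from 1431 ± 84.6 to 1866 ± 100.7 and DERL1, which moves misfolded proteins out of the ER, from 433 ± 22.1 to 551 ± 22.3, while the call of HSPA5, the chaperone BiP (2217 ± 214 to 2722 ± 92.7, adjusted p = 0.0139), was lost without any 1 of 5 libraries (0.0505 to 0.0586). The calls of MANF, DERL1 and HSPA5 were lost in the 15-library fit.

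Of 30 tested cell division genes, 1 fell, CDC20, an activator of the anaphase-promoting complex (82.9 ± 6.23 to 55.2 ± 4.28, adjusted p = 0.0132), and none rose. Its call was lost by DESeq2 (0.0592) and in the 15-library fit. The median was -0.14, and 24 of the 30 differences were negative. Called falls made up 3.33% of the list, against 5.02% of all genes tested. MKI67, a marker of cycling cells, was at 83.7, 84.6, 98.0 and 77.0 on the media scaffold and at 75.9, 66.8 and 62.1 on the smart scaffold (-0.33 ± 0.14, adjusted p = 0.163), against 1605 ± 230.5 at day 0. Of 36 DNA replication genes limma, edgeR, DESeq2 and the 15-library fit called none in either direction, and 1 member had an unadjusted p under 0.05 (median -0.01). TYMS was at 381 ± 16.3 and 378 ± 52.6, and MCM7 at 496 ± 16.5 and 449 ± 6.84. Of 13 senescence-associated secretory and cell cycle inhibitor genes, 2 rose and 3 fell, and the 15-library fit called 1 higher and 4 lower. CDKN2C, an inhibitor of CDK4 and CDK6, fell from 379, 449.7, 435 and 403 to 234, 172 and 233 (-0.97 ± 0.11, adjusted p = 3.83e-05). CDKN1A, p21, rose from 9576 ± 179.6 to 11262 ± 249 (adjusted p = 0.0116), a call lost in the 15-library fit. In both genes the groups were apart. Of 15 p53 target genes 1 rose (CDKN1A) and 1 fell (SESN1), and the 15-library fit called none. That is 6.67% in each direction, against 3.71% higher and 5.02% lower over all genes tested.

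Of 34 oxidative stress and NRF2 genes, 5 fell and 1 rose (median -0.10, 3 lower and 1 higher in the 15-library fit). That is 14.7% lower and 2.94% higher, against 5.02% and 3.71% over all genes tested. SELENOP, a selenium carrier, fell from 1225, 1232, 1366 and 1146 to 505, 418 and 518 (-1.37 ± 0.08, adjusted p = 6.81e-08), and SOD3, the extracellular superoxide dismutase, from 795, 796, 797 and 667 to 363, 446 and 386 (-0.94 ± 0.09, adjusted p = 4.32e-06). The plasma glutathione peroxidase GPX3 fell from 579.7 ± 122 to 295 ± 58.9 (adjusted p = 0.0359), a call lost without any 1 of 5 libraries (up to 0.134). PRDX1, an intracellular peroxiredoxin, rose from 6805 ± 263 to 8903 ± 190.2 (adjusted p = 0.00036). Of 27 hypoxia genes, 4 fell and 1 rose (median -0.28), and the 15-library fit called none. NDRG1 fell from 2546, 2526, 2474 and 2939.7 to 1994, 2279 and 1713 (adjusted p = 0.0147), and MXI1 from 86.3 ± 8.81 to 56.4 ± 3.21. BNIP3L, a mitophagy receptor, fell from 321 ± 40.6 to 220.3 ± 54.1 with overlapping libraries (adjusted p = 0.0445), a call lost without any 1 of 5 libraries (up to 0.146) and by edgeR (0.0511). Of 21 glycolysis genes limma and edgeR called none and DESeq2 called 1 lower, while 8 had an unadjusted p under 0.05 in the lower direction (median -0.19, none called in the 15-library fit). ENO1 was at 13194 ± 1800.1 and 12932 ± 849. Of 57 nuclear oxidative phosphorylation genes, 2 rose and 1 fell (median 0.02, 1 higher in the 15-library fit). That is 3.51% higher and 1.75% lower, against 3.71% and 5.02% over all genes tested. UQCRB rose from 201 ± 22.1 to 306 ± 59.7 (adjusted p = 0.0126, and 0.0516 or 0.0621 without smart replicate 1 or 2). ATP5PF rose from 912 ± 41.8 to 1084 ± 85.0 (adjusted p = 0.0335, lost without any 1 of 5 libraries, up to 0.154), and ATP5MC2 fell from 1700.0 ± 16.2 to 1390.1 ± 87.2 (adjusted p = 0.00577), calls that the 15-library fit lost. Of 37 lysosome genes, 6 fell and 2 rose (median -0.04, 2 lower in the 15-library fit), with LIPA, lysosomal acid lipase, at 265, 266, 271 and 274 against 179.9, 163 and 163 (-0.67 ± 0.09, adjusted p = 0.000118). The protease CTSF fell from 1224 ± 31.2 to 836 ± 64.7 and CTSA from 1549 ± 120.1 to 1237 ± 24.1, a call lost in the 15-library fit. NEU1, a sialidase, rose from 243 ± 5.34 to 308 ± 28.5 (adjusted p = 0.0232), a call lost without any 1 of 5 libraries (up to 0.0864) and in the 15-library fit. Lysosome genes called were 16.2% lower and 5.41% higher, against 5.02% and 3.71% over all genes tested. Of 67 cytosolic ribosomal protein genes, 6 fell and none rose (median -0.09, none called in the 15-library fit). The 4 named by the rule, RPL21, RPS25, RPS9 and RPLP2, fell by 0.21 to 0.27 on the log2 scale, and each lost its call after quantile normalization, without at least 4 of the single libraries and in the 15-library fit.

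Surface markers of mesenchymal stem cells were present on both scaffolds. Of 14 tested, 4 fell and 3 rose (median -0.06, 2 lower and 1 higher in the 15-library fit). THY1 (CD90) fell from 14529, 16749, 15430.0 and 15191 to 10753, 10447 and 9223 (-0.61 ± 0.07, adjusted p = 2.41e-05), with no overlap. PDGFRA, a receptor of fibroblasts and mesenchymal progenitors, fell from 146, 183, 153 and 145 to 72.6, 74.6 and 70.1 (-1.10 ± 0.12, adjusted p = 2e-05), and ANPEP (CD13) from 806 ± 31.5 to 486 ± 59.5. CD44 was at 739.7 ± 49.8 and 824 ± 119.7, ENG (CD105) at 614 ± 13.7 and 576 ± 54.7, and NT5E (CD73) at 317 ± 22.1 and 276 ± 22.1, none of which passed the test. TNFRSF12A rose from 1964 ± 198 to 2874 ± 286 (adjusted p = 0.00108). CSPG4 (NG2), a pericyte marker, rose from 1780.4 ± 88.4 to 2478 ± 484 (adjusted p = 0.0345), a call lost without any 1 of 5 libraries (up to 0.12). The calls of PDGFRA, ANPEP and CSPG4 were lost in the 15-library fit.

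Markers of other cell types were taken as whole lists. Of 18 blood and immune markers, 6 were in the table and 1, CSF1R, reached a mean of 5 (17.6 ± 1.98 and 16.5 ± 3.79), and their summed level was 30.4 to 39.8 in the media and 26.4 to 37.3 in the smart libraries. Epithelial markers (16 listed, 3 in the table, none tested) summed to 2.96 to 9.03 and 3.30 to 9.20. Endothelial markers (16 listed, 6 in the table, 4 tested) summed to 116 to 139 and 145 to 163, the difference lying mainly in ERG, an ETS factor that rose from 82.8 ± 7.03 to 113 ± 9.89 (adjusted p = 0.0358, lost without any 1 of 5 libraries, up to 0.133, and in the 15-library fit). Neural and glial markers (14 listed, 6 in the table, 3 tested) summed to 284 to 343 and 225 to 259, with falls of S100B (269 ± 22.4 to 201 ± 11.6) and NCAM1 (27.8 ± 5.01 to 14.4 ± 5.87). The 15-library fit called 1 of these lower. NCAM1 lost its call without any 1 of 5 libraries (up to 0.147), by edgeR (0.0638), by DESeq2 (0.152) and in the 15-library fit. The part of these markers in the falls of complement and chemokine genes was not tested.

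Some further genes were picked out after their values were seen. ANGPT1, a ligand of the TIE2 receptor, fell from 76.3, 72.6, 89.1 and 63.2 to 21.5, 25.2 and 31.0 (-1.51 ± 0.18, adjusted p = 4.75e-05), beside the fall of ANGPT4. NDRG2, a gene of differentiated cells, fell from 258 ± 37.7 to 86.6 ± 17.9, SPON2, a secreted matrix protein, from 110.4 ± 17.1 to 33.6 ± 6.31, and ECM1 from 67.1 ± 15.1 to 23.6 ± 0.526. Of the developmental transcription factors, SIX2 fell from 19.8 ± 3.52 to 4.94 ± 4.31 (-2.02 ± 0.39, adjusted p = 0.00397) and HAND1 rose from 34.1 ± 5.82 to 63.3 ± 5.08 (0.88 ± 0.17, adjusted p = 0.00424). None of these 6 genes overlapped between the groups, as was so for 898 of the 929 called genes and 20.7% of all genes tested. Of the 929 called genes 66 carry no symbol in the table. The identifier ENSBTAG00000020704 fell from 152 ± 14.8 to 10.8 ± 6.68, and ENSBTAG00000018098 rose from 42.9 ± 4.32 to 109 ± 19.4, a call lost in the 15-library fit.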

How the data were processed

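Per the labels, the libraries come from bovine umbilical cord mesenchymal stem cells and were made by MARS-seq, a method that counts 3′ ends of polyadenylated transcripts. The submitters' processing notes name cutadapt, STAR, HTSeq and DESeq and the genome build ARS-UCD1.2. Tool versions, strand and molecular identifiers in counting are not given in the sources used here; overlapping and antisense genes therefore cannot be told apart. The deposited values are a normalized signal, read counts that the authors divided by 1 factor per library, and 100% of values were whole multiples of what 1 read is worth (tolerance 0.1). Of the table's columns, 2 matched no label and were not used, so the day 0 scaffold group was not analysed here.

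Libraries of the smart and media scaffolds were compared with limma 3.58.1 (R 4.3.3, mean-variance trend, robust), on values transformed as log2(value + 1), over the 7 libraries, two-sided, with Benjamini-Hochberg adjustment over 10635 genes with a mean of at least 5. "Rose" and "fell" are used at an adjusted p under 0.05. Differences are on that log2 scale, which understates change in genes with few reads. An exact permutation test of 3 against 4 libraries cannot go below 0.057, so none was used for single genes. Data were simulated for 10635 genes at the mean levels of this comparison, with a spread set by hand and not estimated from these libraries. On them the test called 48 of 100 genes changed 1.5-fold, 100 of 100 changed 3-fold and 14 of 10435 unchanged genes. These counts therefore do not give the power of the test on the real libraries. Alternatives were other pseudocounts (0.5 and 4), no filter or a minimum mean of 20, rescaled totals, quantile normalization, array weights, a fit of all 15 mapped libraries, a replicate block, edgeR 4.0.16 and DESeq2 1.42.0 on recovered reads, a 2-fold minimum, and leaving out each library. Deposited depths (recovered reads) limit precision, and the p-values cover only the spread between these libraries.

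The comparison, the 50 gene lists and the tests were chosen with earlier results of these data known. The text names the 12 largest rises and falls among called genes with a symbol, a mean of at least 20 and groups that do not overlap; per list the 4 called members with the largest difference, or, with none called, the 2 most abundant; and landmark genes. This gave 164 genes, 3 of which are not reported here. Another 42 were chosen after their values were seen: CX3CL1, ANGPT1, SIX2, HAND1, LTBP1, ECM1, SPON2, NDRG2, C2, CLU, CCL2, HMGCS1, ITGB1, THBS1, TNC, CSPG4, TNFRSF12A, INHBA, SMAD7, IGF2, IGF1, ELN, FGF2, FGF7, VEGFC, MYL9, TAGLN, COL3A1, CD44, ENG, C3, FN1, PTX3, DCN, LUM, NT5E, IGFBP6, CNN1, FBLN2, FABP5 and the 2 identifiers without a symbol. The reference table (assembly ARS-UCD2.0) matched 0 of the 1498 genes that lack a symbol and served for older symbols alone. No coordinates or sequences are printed.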

Additional observations from a re-analysis of the deposited data

Results flagged for a closer look

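In the media group of 4 libraries, 1 library stood far from the other 3 in 19 of the 203 genes named (9.36%). These genes come from the same libraries and were mostly chosen by their calls. No rate over all genes tested is given here, so whether 9.36% exceeds chance is not known. In 16 of these genes it was media replicate 4. It was the highest media library for ACTA2 (56853), COL16A1 (1478), COX4I2 (128), CYP51A1 (197), ENO1 (15889), GAPDH (28766), HSPA5 (2536), HSPB7 (477), IGF1 (68.1), INHBA (1805), MYLK (17147) and NDRG1 (2939.7), all in normalized reads. It was the lowest for CTSA (1370.1), ELN (21545), LOXL1 (1372) and SOD3 (667). Set against the other 3 media libraries, it lay on the side of the smart mean in 10 of the 16 (ACTA2, HSPB7, INHBA, MYLK, CYP51A1, HSPA5, ENO1, CTSA, LOXL1 and SOD3) and on the other side in 6 (COX4I2, COL16A1, NDRG1, ELN, IGF1 and GAPDH). Without media replicate 4 there were 466 higher and 588 lower calls in place of 395 and 534. The other genes were CFB, at 39.7 in media replicate 3, RPS9, at 13883 in media replicate 2, and FABP5, at 1904 in media replicate 1. The smart group has 3 libraries and was not examined in this way.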

How the results depend on the processing

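No named gene that was called changed direction under any alternative run; of the named genes that were not called, 8 (C3, COL1A1, CSF1R, DCN, ENO1, FN1, MYL9 and TYMS) had differences on both sides of 0. Of the 171 named genes that were called, 82 kept their call in the fit of all 15 mapped libraries, 158 by DESeq2, 167 by edgeR and 164 after quantile normalization. Without 1 library, 137 to 161 kept it. DESeq2 lost the calls of CDC20, CYP26B1, ERG, FOS, ITGA9, KCNK5, MT1E, NCAM1, NRP1, PODNL1, SDC4, SMAD7 and TCF7. The calls lost by edgeR were those of BNIP3L, COX4I2, KCNK5 and NCAM1. In the 15-library fit, 74 genes were called higher and 176 lower (6 and 85 past 2-fold), with 3 complement, 4 elastic fibre, 2 glucocorticoid target and 3 adipocyte genes lower and 4 cholesterol, 2 integrin and 2 immediate early genes higher. A 2-fold minimum left 14 higher and 123 lower genes, with 3 elastic fibre, 1 IGF, 2 glucocorticoid target and 2 adipocyte genes lower and 0 cholesterol, 0 integrin and 0 immediate early genes higher. Genes past 2-fold and higher numbered 8 with a pseudocount of 4, 7 with a minimum mean of 20 and 9 by DESeq2. Leaving out 1 library gave 225 to 466 higher and 332 to 588 lower calls, 9 to 18 and 90 to 131 past 2-fold, with 6 to 7 complement, 5 to 7 chemokine, 5 to 9 elastic fibre, 3 to 5 IGF, 5 to 8 glucocorticoid target and 3 to 6 adipocyte genes lower and 8 to 11 cholesterol, 6 to 7 integrin and 2 to 5 immediate early genes higher. The deviations of same-numbered libraries correlated at 0.026, 0.01 and 0.036, within the range of other pairs (-0.082 to 0.062). With so few libraries this cannot decide whether the numbers pair the samples. A fit with the replicate number as a block, which leaves out media replicate 4, called 520 higher and 648 lower, 22 higher past 2-fold and 7 IGF genes lower. Leaving out media replicate 4 without a block gave 466 higher and 588 lower. Genes with few reads were limited by depth. A minimum mean of 20 left no blood and immune marker, so it gave no value for that list. The cause of these differences was not tested.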
